A study of Mus musculus with 20 samples.

Results

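Dopamine is made, stored, taken back and broken down by a short chain of proteins, and the RNA of 7 genes of this chain was followed in mouse striatum. The genes were Th, Ddc and Gch1 for synthesis, Slc6a3 and Slc18a2 for transport, and Maoa and Maob for breakdown. They were taken by symbol, and all 7 were found among the 39179 genes listed for each mouse. The tissue was the whole bilateral striatum of 20 adult male mice from generation 17 of a breeding experiment that began with an inter-cross of 8 inbred strains. High-Active mice were selected for home cage activity and Control mice were not selected, and each line was 1 breeding population, so selection and drift cannot be told apart. Each mouse was injected with 0.25 mg/kg amphetamine or with saline and killed 2 hours later, at about 6.5 months of age, so that each line had 5 mice given saline and 5 given amphetamine. By the labels, 8 pairs of parents gave the Control mice and 5 pairs gave the High-Active mice, and 4 Control and 9 High-Active mice had a full brother in the data. The methods of the study describe mice from different families, and the labels were followed here.

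Tyrosine hydroxylase, the product of Th, carries out the rate-limiting step from tyrosine to L-DOPA, and aromatic amino acid decarboxylase, the product of Ddc, turns L-DOPA into dopamine. GTP cyclohydrolase 1, the product of Gch1, begins the synthesis of tetrahydrobiopterin, the cofactor that tyrosine hydroxylase needs. The vesicular monoamine transporter VMAT2 (Slc18a2) loads dopamine into vesicles, and the dopamine transporter DAT (Slc6a3) takes it back from outside the cell. Amphetamine acts on both transporters, and the monoamine oxidases MAO-A (Maoa) and MAO-B (Maob) degrade the amine in the mitochondrial outer membrane. The dopamine axons of the striatum arise from cell bodies in the midbrain, which lie outside the dissected tissue.

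The starts of 4 transcripts are shown because Th and Slc18a2 share a motif and because Ddc and Slc18a2 varied together from mouse to mouse. Each line gives 250 bases before and 50 bases after a RefSeq start, 5′ to 3′ on the strand of the gene, in build GRCm38.p6. Capitals mark the cyclic AMP response element TGACGTCA, the letters AAAGGTCA bound by receptors of the Nr4a family, and TATAAA, each searched on both strands.
Th (chr7:142899946-142900245, minus strand): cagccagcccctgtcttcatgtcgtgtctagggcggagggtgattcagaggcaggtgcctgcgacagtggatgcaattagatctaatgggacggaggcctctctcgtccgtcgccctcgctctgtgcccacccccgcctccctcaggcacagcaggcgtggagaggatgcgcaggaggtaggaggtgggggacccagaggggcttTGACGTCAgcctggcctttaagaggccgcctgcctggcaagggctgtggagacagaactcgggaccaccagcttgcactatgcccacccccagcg
Slc18a2 (chr19:59260628-59260927, plus strand): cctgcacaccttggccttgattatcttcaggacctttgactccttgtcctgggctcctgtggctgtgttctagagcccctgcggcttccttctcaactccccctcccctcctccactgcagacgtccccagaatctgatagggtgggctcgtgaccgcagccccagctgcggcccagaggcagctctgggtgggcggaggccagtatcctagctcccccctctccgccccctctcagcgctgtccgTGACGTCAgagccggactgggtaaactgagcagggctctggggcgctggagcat
Ddc, upstream start (chr11:11898095-11898394, minus strand): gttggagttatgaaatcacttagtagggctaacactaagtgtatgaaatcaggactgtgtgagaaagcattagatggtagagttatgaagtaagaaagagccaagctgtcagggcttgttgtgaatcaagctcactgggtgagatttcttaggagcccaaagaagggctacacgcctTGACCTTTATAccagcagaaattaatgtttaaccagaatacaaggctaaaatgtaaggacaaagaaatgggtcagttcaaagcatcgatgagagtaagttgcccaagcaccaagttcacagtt
Ddc, downstream start (chr11:11890359-11890658, minus strand): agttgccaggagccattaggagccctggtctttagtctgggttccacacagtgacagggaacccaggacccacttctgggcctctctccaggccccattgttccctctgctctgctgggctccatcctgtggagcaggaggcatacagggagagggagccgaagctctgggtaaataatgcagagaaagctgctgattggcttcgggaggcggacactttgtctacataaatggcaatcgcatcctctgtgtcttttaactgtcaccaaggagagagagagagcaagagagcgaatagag
TGACGTCA reads the same on both strands. Its first base lay 45 bases before the start of Th and 4 bases before the start of Slc18a2, and it was found in 588 of the 32851 promoters of the same length (1.79%). In the upstream start of Ddc, AAAGGTCA and TATAAA both lay on the opposite strand and overlapped each other, while the downstream start held none of the motifs. AAAGGTCA was found in 1.51% and TATAAA in 13.6% of all promoters. Of the starts not shown, that of Gch1 held TATAAA on the opposite strand, and those of Slc6a3 and Maoa held none of the 3 motifs. These are matches of letters in a window, and none was tested as a site of binding.

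The libraries held 32388971 to 53710713 gene counts (median 40460128 in Control and 44088747 in High-Active mice). Counts were scaled to library size as CPM, and 14792 genes exceeded 1 CPM in 3 or more mice, among them 6 of the 7. Slc6a3 was not, and its differences come from the same model without the threshold, over 26116 genes. Markers of medium spiny neurons were abundant, such as Ppp1r1b (1246 CPM), Penk (1233 CPM) and Drd1 (229.8 CPM). The cortical excitatory neuron marker Slc17a7 averaged 336.4 CPM, and the choroid plexus marker Ttr ran from 33 to 45239 counts. Of 15 markers of midbrain dopamine neurons, 8 did not pass the threshold: Foxa2 and Dlk1 had no count in any of the 20 mice, Pitx3 had 0 to 4 counts, Foxa1 0 to 3, Lmx1b 1 to 9, Chrna6 1 to 9, Lmx1a 0 to 24 and En1 0 to 34. The other 7 passed, among them Nr4a2, which averaged 31.1 CPM (304 to 2430 counts). In whole tissue, fewer cells of a type and less RNA per cell cannot be told apart.

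Scaled to exon length, the breakdown genes were the most abundant of the 7. Over the 20 mice, Maoa averaged 9.28 RPKM, the CPM per kilobase of exon, and Maob 8.17 RPKM. Th averaged 3.48 RPKM and Ddc 1.99 RPKM. Slc18a2 averaged 0.578 RPKM, Gch1 0.162 RPKM and Slc6a3 0.0947 RPKM. The ranges of neighbors in this order overlapped over single mice, down to Gch1 (0.107 to 0.223 RPKM) and Slc6a3 (0.0276 to 0.184 RPKM).

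**Figure D1:**
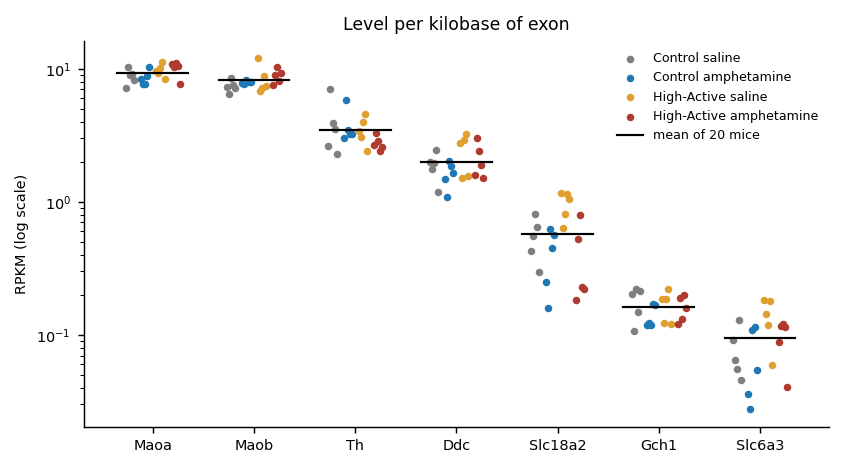
RPKM of each of the 7 genes (log axis) in each of the 20 mice, colored by group, with a black line at the mean of all mice. Maoa and Maob sit near 9.28 and 8.17 RPKM, and Slc6a3 near 0.0947 RPKM.

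None of the 7 genes was differentially expressed between lines, after amphetamine or in the line by drug comparison at an adjusted p under 0.1 (edgeR quasi-likelihood test with Benjamini-Hochberg adjustment, n = 5 per group). Among all genes tested, 14.5% were called for line, 0% for amphetamine and 0% for the interaction. With unadjusted p values, 12.5% of all genes were under 0.05 for amphetamine and 26.1% for line, and 1 of the 6 genes above the threshold was under 0.05 in each of these comparisons (Slc18a2 for amphetamine and Maoa for line). The median line difference of the 6 genes was 0.18 on the log2 scale, against -0.00 over all genes, and the median amphetamine difference was -0.20, against -0.01. The line difference was positive for 5 of the 6 (49.7% of all genes), the amphetamine difference for 2 (47% of all genes) and the interaction for 2 (50.5% of all genes). For the interaction, 0 of the 6 had an unadjusted p under 0.05, against 2.97% of all genes. Within 1 treatment or 1 line none of the 6 was called either, where 3.74% of all genes were called between lines in saline mice, 1.3% between lines in amphetamine mice and 0% for amphetamine in each line. DESeq2 called 391 of all genes for amphetamine. The groups of all 7 genes overlapped in each of the 6 comparisons, whereas they did not overlap in 0.264% of all genes between lines, 0.0135% between treatments, 4.23% between lines in saline, 2.94% between lines in amphetamine, 1.11% for amphetamine in Control and 0.892% for amphetamine in High-Active mice. Slc18a2 showed the largest amphetamine difference of the 7, and Maoa came closest to the threshold between the lines.

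**Figure D2:**
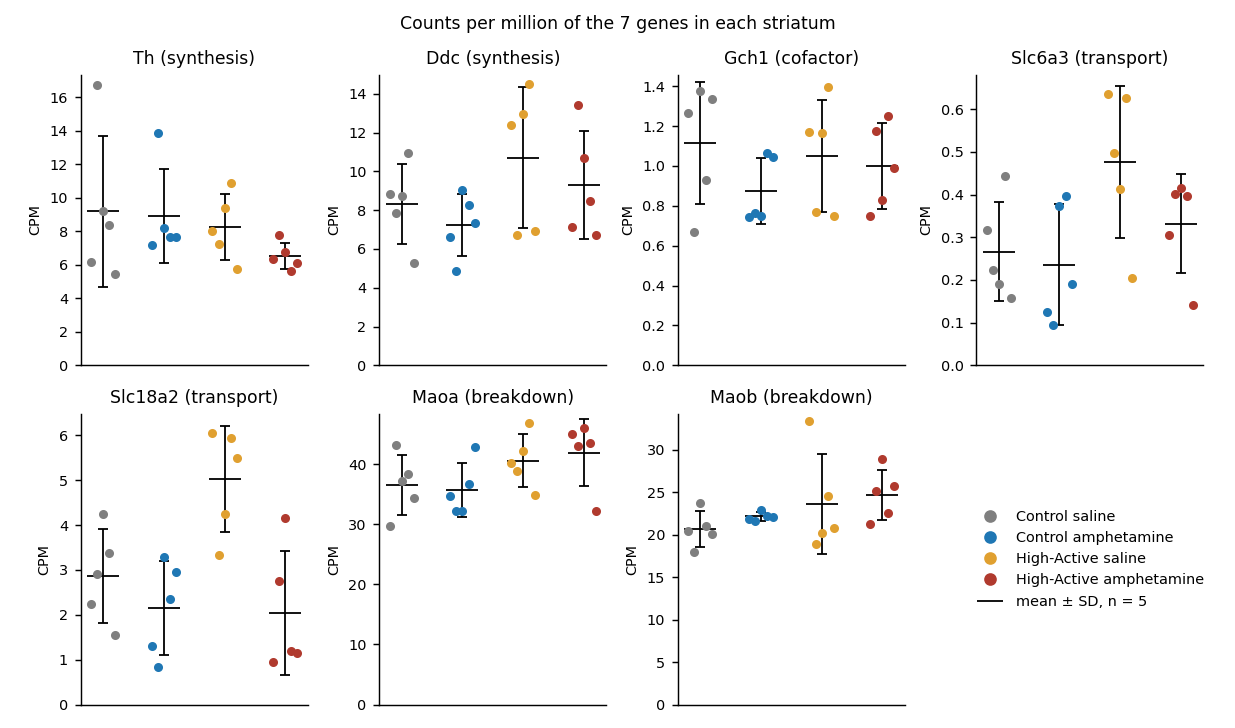
CPM of each gene (vertical axes from 0) in each mouse by group, 5 mice per group, with the mean and SD in black. Slc18a2 runs from 3.33 to 6.06 CPM in High-Active saline mice and from 0.954 to 4.17 CPM in High-Active amphetamine mice, and the groups of every gene overlap.

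Th (ENSMUSG00000000214, minus strand of chr7:142892752-142931128, GRCm38) had a lower mean in High-Active mice, unlike the other 6 genes. Control saline mice had 6.19, 16.8, 9.19, 8.36 and 5.44 CPM in replicates 1 to 5, and Control amphetamine mice had 7.17, 13.9, 8.23, 7.64 and 7.67 CPM. The second replicate was the highest in both groups, and these 2 mice had the same sire and dam. High-Active saline mice had 7.99, 7.26, 9.38, 10.9 and 5.74 CPM, and High-Active amphetamine mice had 6.35, 7.77, 6.74, 5.65 and 6.10 CPM. The lines overlapped throughout, and in the amphetamine groups 4 of the 5 High-Active mice were below every Control mouse. The line difference was -0.30 on the log2 scale (standard error 0.18, unadjusted p = 0.111, adjusted p = 0.306, edgeR quasi-likelihood test), with 2 standard errors reaching from -0.66 to 0.06. Between the amphetamine groups, mean log2 CPM differed by -0.41 (exact permutation test, two-sided, unadjusted p = 0.0318, n = 5 per group), and edgeR gave an adjusted p of 0.475. The amphetamine difference was -0.19 (standard error 0.18, adjusted p = 0.721). Fits that left out 1 mouse gave line differences of -0.37 to -0.14. Without Control saline replicate 2 the line difference was -0.14 (adjusted p = 0.585, edgeR). Without Control amphetamine replicate 2 it was -0.20 (adjusted p = 0.510, edgeR). The likelihood-ratio test of edgeR with robust dispersions gave a line difference of -0.15 (adjusted p = 0.608).

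Ddc (ENSMUSG00000020182, minus strand of chr11:11814101-11898144) had higher means in both High-Active groups. Control saline mice had 8.83, 7.84, 8.72, 11.0 and 5.28 CPM, and Control amphetamine mice had 6.60, 4.87, 9.06, 8.29 and 7.36 CPM. High-Active saline mice had 12.4, 6.72, 13.0, 14.5 and 6.95 CPM, and High-Active amphetamine mice had 7.13, 13.4, 10.7, 8.49 and 6.70 CPM. In all, 4 High-Active mice were above all 10 Control mice, but the others lay within the Control range. The line difference was 0.36 (standard error 0.17, adjusted p = 0.1995, edgeR), with means of 10.0 ± 3.14 CPM in High-Active against 7.78 ± 1.83 CPM in Control mice (SD, n = 10). An antisense gene, 1700042O10Rik, lies opposite Ddc without sharing exon bases and had at most 1 count.

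Gch1 (ENSMUSG00000037580, minus strand of chr14:47153895-47189413) was counted 24 to 65 times per mouse and averaged 0.994 ± 0.265 CPM in Control and 1.03 ± 0.237 CPM in High-Active mice (SD, n = 10). The line difference was 0.05, with 2 standard errors reaching from -0.28 to 0.38, and the amphetamine difference was -0.21 (standard error 0.17, adjusted p = 0.649, edgeR). Its counts alone would give a spread of 15.4% between mice, and the groups varied by 19.1% to 27.4%.

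No other gene of the tetrahydrobiopterin pathway was called. Of 7 genes listed, 6 passed the expression threshold, with a median line difference of 0.00. Of these 6, 0 were called for line, amphetamine or interaction, against 14.5%, 0% and 0% of all genes. Qdpr, whose product regenerates the cofactor after use, was the most abundant (63.0 RPKM). Pcbd1, which acts in the same recycling, had the smallest line p value of this list (0.51, standard error 0.22, unadjusted p = 0.0336, adjusted p = 0.154, edgeR). Gchfr, the feedback regulator of GTP cyclohydrolase 1, had only 2 to 17 counts per mouse.

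Slc18a2 (ENSMUSG00000025094, plus strand of chr19:59260896-59296012) had its highest mean in High-Active saline mice and its lowest in High-Active amphetamine mice. High-Active saline mice had 6.06, 3.33, 4.26, 5.95 and 5.49 CPM, and High-Active amphetamine mice had 0.954, 2.75, 4.17, 1.19 and 1.15 CPM. All but the third amphetamine mouse were below every saline mouse of this line. Control saline mice had 2.24, 2.92, 4.26, 3.37 and 1.54 CPM, and Control amphetamine mice had 1.31, 0.828, 3.28, 2.36 and 2.94 CPM. In Control mice the treatments overlapped, with 2 of the 5 amphetamine mice below all saline mice.

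Averaged over the lines, the amphetamine difference of Slc18a2 was -0.86 on the log2 scale (standard error 0.29, unadjusted p = 0.00796, adjusted p = 0.244, edgeR quasi-likelihood test), and the gene ranked 480 of 14792 by p. Mean log2 CPM was 0.99 lower in the 10 amphetamine mice than in the 10 saline mice (permutation test, two-sided, unadjusted p = 0.0089), the smallest p of 42 such tests run over the 7 genes and 6 comparisons. Within High-Active mice the edgeR difference was -1.30 (standard error 0.41, adjusted p = 0.381), and the difference of mean log2 CPM was -1.48 (exact permutation test, unadjusted p = 0.0159, where 0.00794 is the smallest p that 5 against 5 allows). Within Control mice the edgeR difference was -0.42 (standard error 0.41, adjusted p = 0.878). The responses of the lines were not shown to differ: the interaction was -0.88 (standard error 0.58, unadjusted p = 0.143, adjusted p = 1, edgeR). In saline mice, Slc18a2 was 0.81 higher in the High-Active line (standard error 0.40, adjusted p = 0.313, edgeR), and all 5 High-Active saline mice were above the Control saline median. In amphetamine mice the edgeR line difference was -0.07. Between the saline groups, mean log2 CPM differed by 0.84 (exact permutation test, two-sided, unadjusted p = 0.0397). The likelihood-ratio test of edgeR with robust dispersions called the amphetamine difference (-0.98, adjusted p = 0.0114, with 458 of all genes called), and DESeq2 did not (adjusted p = 0.108).

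In all, 6 pairs of parents, 2 Control and 4 High-Active, contributed mice to both treatments. Slc18a2 was lower in the amphetamine mouse in 4 of these 6 families, with a mean difference of -1.05 ± 1.23 log2 CPM (SD, exact sign-flip test, p = 0.125, where the smallest possible p is 0.0313). The 4 lower values ranged from -2.35 to -0.98, and the 2 higher ones, 1 in each line, were 0.32 and 0.54. This comparison was added after the values were seen.

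RNA of cortical excitatory neurons moved with the same groups. All 10 markers of this list passed the threshold and none was at 0 in any mouse, and their summed level was 223.8 to 427.7 CPM in High-Active saline, 304.7 to 1113 CPM in High-Active amphetamine, 390.8 to 954.6 CPM in Control saline and 717.4 to 1004 CPM in Control amphetamine mice. The mean log2 CPM of the list was 0.77 higher after amphetamine (permutation test, unadjusted p = 0.0174, n = 10 per treatment) and 0.65 lower in High-Active mice (permutation test, unadjusted p = 0.0482, n = 10 per line). In all, 4 of the 10 markers were called lower in High-Active mice, against 6.9% of all genes. These were Slc17a7 (-0.85, adjusted p = 0.0731, edgeR), Tbr1 (-0.69, adjusted p = 0.0949), Neurod2 (-0.91, adjusted p = 0.0570) and Lamp5 (-0.40, adjusted p = 0.0148). For amphetamine 0 were called, against 0% of all genes, and 8 had an unadjusted p under 0.05, against 12.5% of all genes. With the cortical score as a covariate, the amphetamine difference of Slc18a2 was -0.45 (unadjusted p = 0.173, adjusted p = 0.967, edgeR) and its line difference was -0.03, against 0.37 without it. With the same covariate the line difference of Ddc was 0.08 and that of Th was -0.55 (unadjusted p = 0.0106, adjusted p = 0.197, edgeR). The score itself differed between the treatments and the lines, so this fit cannot tell it apart from either. The part of cortical tissue in these differences was not tested.

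**Figure D3:**
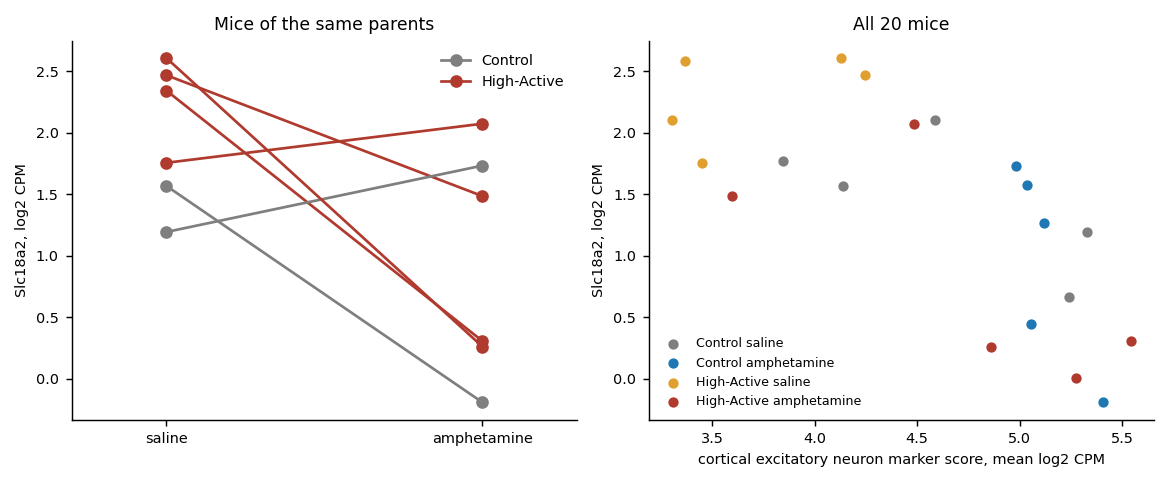
Left, mean Slc18a2 log2 CPM of saline and amphetamine mice of the same parents, 1 line per family (2 Control, 4 High-Active), lower after amphetamine in 4 of 6. Right, Slc18a2 log2 CPM of each mouse against its cortical excitatory neuron marker score (mean log2 CPM of 10 genes), where the High-Active saline mice sit at low scores and high Slc18a2.

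Slc6a3 (ENSMUSG00000021609, plus strand of chr13:73536747-73578672) was near the floor, with 3 to 25 counts per mouse and no mouse above 1 CPM. Control saline mice had 12, 8, 9, 20 and 7 counts, and Control amphetamine mice had 5, 3, 13, 16 and 8. High-Active saline mice had 25, 20, 18, 22 and 9 counts, and High-Active amphetamine mice had 15, 13, 23, 19 and 7. Of the 10 High-Active mice, 8 were above the Control median in log2 CPM, and the lines overlapped. Between lines Slc6a3 differed by 0.65 (standard error 0.29, unadjusted p = 0.0385, adjusted p = 0.227, edgeR without the threshold, where 7.25% of 26116 genes were called), and the amphetamine difference was -0.34 (standard error 0.29, adjusted p = 0.807). At such counts, counting error alone is 27.1% of the mean.

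Of the 7 other monoamine transporters matched, Slc22a3 (8.59 CPM) and Slc29a4 (9.82 CPM), which are carriers of low affinity, passed the threshold. Neither was called for line, amphetamine or interaction, against 14.5%, 0% and 0% of all genes. The noradrenaline transporter gene Slc6a2 had 0 to 34 counts, the serotonin transporter gene Slc6a4 had 0 to 5 counts, and Slc18a1 had 0 to 10. None of the 7 markers of serotonin and noradrenaline neurons passed the threshold, with at most 2 counts of Fev.

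Among 12 partners of tyrosine hydroxylase and the dopamine transporter, 11 passed the threshold. Of these, 0 were called for amphetamine or interaction, against 0% of all genes. For line 1 was called, against 14.5% of all genes (6.9% called lower). This was Stx1a, the syntaxin that binds the transporter, at 0.53 lower in High-Active mice (standard error 0.17, adjusted p = 0.0599, edgeR). Its amphetamine difference was 0.52 (standard error 0.17, unadjusted p = 0.00622, adjusted p = 0.228, edgeR), so it differed in the same directions as the cortical markers. Syngr3 (149.2 CPM) and Park7 were not called, and Taar1, an amphetamine receptor, had no count in 19 of the 20 mice.

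Maoa (ENSMUSG00000025037, plus strand of chrX:16619698-16687818) was the nearest of the 7 to the threshold between lines. Control saline mice had 29.7, 43.1, 37.1, 38.3 and 34.4 CPM, and Control amphetamine mice had 34.7, 32.1, 32.2, 36.6 and 42.9 CPM. High-Active saline mice had 40.1, 38.9, 42.2, 46.8 and 34.8 CPM, and High-Active amphetamine mice had 45.0, 42.9, 45.9, 43.5 and 32.2 CPM. Of the 10 High-Active mice, 8 were above the Control median and 4 were above every Control mouse, while the fifth High-Active amphetamine mouse was lower than all but 3 Control mice. The line difference was 0.19, or 14.2%, from 36.1 ± 4.46 to 41.2 ± 4.77 CPM (SD, n = 10 per line, standard error 0.08 on the log2 scale, unadjusted p = 0.0240, adjusted p = 0.129, edgeR). With DESeq2 the adjusted p was 0.0968 and with the likelihood-ratio test of edgeR it was 0.0573, both under 0.1. For line these 2 methods called 2810 and 2269 of the 14792 genes. The fit with the pair of parents as a random block gave an adjusted p of 0.154 for Maoa, with 1872 genes called. With the cortical score as a covariate the line difference was 0.10 (adjusted p = 0.641). The amphetamine difference was 0.01, with 2 standard errors reaching from -0.15 to 0.16.

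Maob (ENSMUSG00000040147, minus strand of chrX:16709282-16817366), the neighbor of Maoa on the opposite strand, had 18.0 to 23.8 CPM in Control saline, 21.6 to 23.0 CPM in Control amphetamine, 18.95 to 33.5 CPM in High-Active saline and 21.3 to 28.9 CPM in High-Active amphetamine mice. In all, 5 High-Active mice were above all Control mice, and the groups overlapped. Between lines Maob differed by 0.17 (standard error 0.09, unadjusted p = 0.0590, adjusted p = 0.211, edgeR), and all 10 amphetamine mice were above the saline median although the amphetamine difference was only 0.08 (standard error 0.09, adjusted p = 0.745). The spread between mice of a group was 10.8% to 13.6% of the mean for Maoa, 2.35% to 24.99% for Maob and 23.6% to 68.0% for Slc18a2, where counting error alone would give 2.48%, 3.23% and 8.92%.

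**Figure D4:**
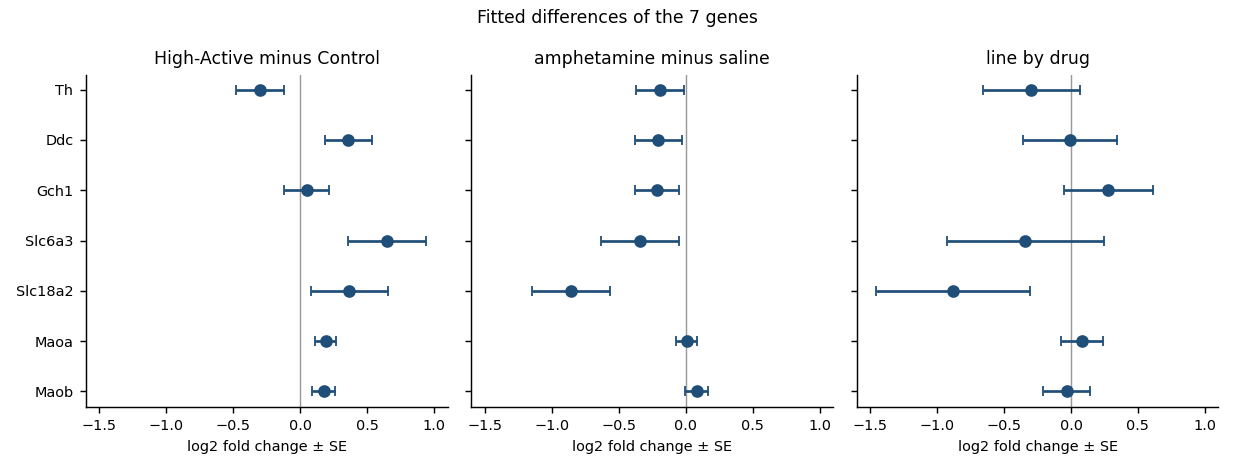
Fitted log2 fold changes (horizontal axis) of the 7 genes with their standard errors for line, amphetamine and their interaction, from the edgeR model of 20 mice. Slc18a2 has the largest amphetamine difference (-0.86), and Maoa (0.19) and Maob (0.17) have the smallest errors between lines.

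Among 10 other enzymes of catecholamine synthesis and breakdown, 8 passed the threshold and 2 were called for line, both higher, against 7.63% of all genes called higher. Aldh1a1, an aldehyde dehydrogenase, was higher in High-Active mice by 0.72 (standard error 0.15, adjusted p = 0.00806, edgeR), and Sult1a1, a sulfotransferase that acts on catecholamines, was higher by 0.71 (standard error 0.17, adjusted p = 0.0176). Aldh1a1 is also on the list of midbrain dopamine neuron markers, where Sncg was called as well, higher by 0.81 (standard error 0.25, adjusted p = 0.0560). The line differences of that list went both ways, with 5 of its 7 tested genes positive, and Nr4a2 was at -0.65 (standard error 0.30, adjusted p = 0.178, edgeR) and En2 at -0.29 (standard error 0.21, adjusted p = 0.402). The line differences of the 8 enzymes tested were all positive, as were those of 49.7% of all genes (median 0.16, against -0.00 over all genes). For amphetamine 0 of the enzymes were called, against 0% of all genes. Dbh, which turns dopamine into noradrenaline, had 2 to 14 counts per mouse.

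Among mice of the same group, Ddc and Slc18a2 varied together. Over deviations from the group means of log2 CPM (n = 20), Pearson r was 0.71 (permutation test, p = 0.00072, adjusted p = 0.0108 over 15 pairs of genes) and Spearman rho was 0.74 (adjusted p = 0.0045). Leaving out the 2 mice with the most extreme Ddc deviations gave r = 0.66, and r was 0.83 in Control and 0.63 in High-Active mice. Slc18a2 and Maob had r = 0.50 (permutation test, adjusted p = 0.168) and rho = 0.65 (adjusted p = 0.0194). Th and Slc18a2 had r = 0.09 (permutation test, adjusted p = 0.876). Slc6a3, which did not pass the threshold, was not among these pairs. Maoa and Maob, which are neighbors on chromosome X, had r = -0.01 (permutation test, adjusted p = 0.969).

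**Figure D5:**
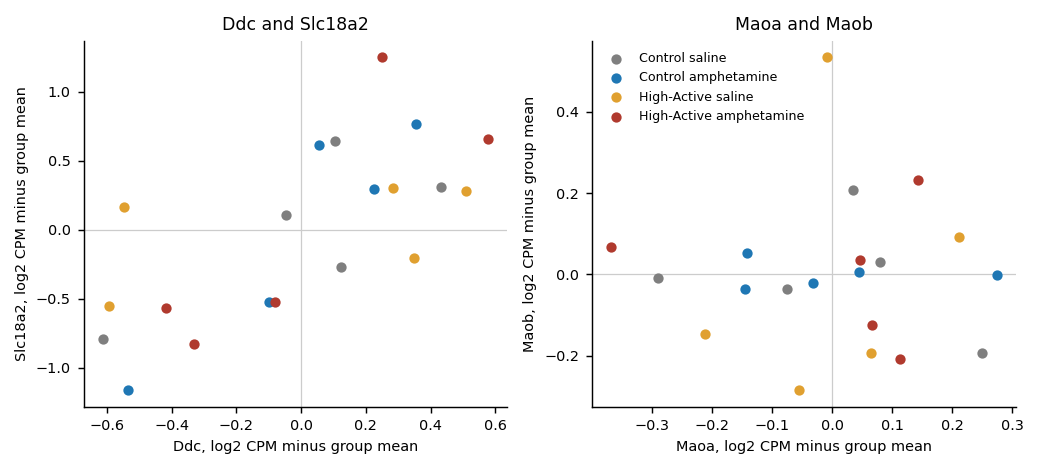
Deviations from the group mean of log2 CPM for each of the 20 mice, Ddc against Slc18a2 (left) and Maoa against Maob (right), colored by group. The left points rise together (r = 0.71) and the right points do not (r = -0.01).

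The genes were also set against marker lists in the same way, which gave 56 relations, of which 7 had adjusted p values under 0.05 by both Pearson r and Spearman rho. Gch1 varied with the astrocyte markers (r = 0.69, permutation test, adjusted p = 0.0115, rho = 0.81, and r = 0.65 without the 2 farthest mice). Ddc varied against the medium spiny neuron markers (r = -0.66, permutation test, adjusted p = 0.0203, rho = -0.69, r = -0.64 without the 2 farthest mice), as did Maob (r = -0.72, permutation test, adjusted p = 0.0115, rho = -0.65, r = -0.45 without them) and Slc6a3 (r = -0.59, permutation test, adjusted p = 0.0384, rho = -0.65, r = -0.69 without them). The remaining 3 tied Ddc, Slc18a2 and Maob to the 7 midbrain list genes that passed the threshold, while the other 8 of that list did not pass. These 7 genes did not differ in 1 direction after amphetamine. Their median difference was -0.24, and Nr4a2 was at 0.94 (standard error 0.30, unadjusted p = 0.00595, adjusted p = 0.228, edgeR). Between lines, 0 of the 12 medium spiny neuron markers and 0 of the 6 choroid plexus markers were called, against 14.5% of all genes. The line difference was positive for 1 of the 12 (median -0.13) and for all of the 6 (median 0.66), against 49.7% of all genes. An unadjusted p under 0.05 was found for 3 of the 12 and 0 of the 6, against 26.1% of all genes (edgeR). Of the 10 astrocyte markers 5 were called higher (Aldh1l1 0.32, Gja1 0.19, Sox9 0.23, Aldoc 0.19 and Fgfr3 0.26) and 2 lower (S100b -0.77 and Slc1a2 -0.12), against 7.63% and 6.9% of all genes. Of the 8 oligodendrocyte markers 2 were higher (Mbp 0.26 and Mobp 0.33), of the 6 microglia markers 2 were lower (Aif1 -0.42 and Csf1r -0.14), and of the 10 endothelial and pericyte markers Rgs5 was higher (0.63) and Esam lower (-0.20). The part of these cell types in the differences of the 7 genes was not tested. Against the cortical excitatory neuron markers, r was -0.50 for Slc18a2 (permutation test, adjusted p = 0.105). It was -0.57 for Ddc and -0.51 for Th (permutation test, adjusted p = 0.0559 and 0.1035). By rho the adjusted p was 0.0405 for Ddc, 0.0198 for Th and 0.101 for Slc18a2 (permutation test). For the other genes r with this list ran from -0.42 (Maoa) to 0.11 (Gch1). Both values of each relation come from the same library and share its scaling.

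By the same measure the genes most like Slc18a2 among those tested were Nrsn2 (r = 0.91), Erich2 (r = 0.90) and Ppp1r32 (r = 0.88), and the most opposed was Aak1 (r = -0.86), where 95% of genes were below 0.58. For Ddc they were Ppfia4 (r = 0.92), D330045A20Rik (r = 0.92) and Gkap1 (r = 0.92), with Zfp365 the most opposed (r = -0.96). For Th they were Fxr1 (r = 0.88), Cacybp (r = 0.84) and Arl5a (r = 0.84), with Tmem191c opposed (r = -0.92). For Gch1 they were Angel1 (r = 0.82), Zranb3 (r = 0.82) and Glud1 (r = 0.81), with C1qtnf6 opposed (r = -0.79). For Maoa they were Cmc1 (r = 0.82), Lamp2 (r = 0.79) and Iqcb1 (r = 0.79), with Stt3b opposed (r = -0.84). For Maob they were Lrsam1 (r = 0.83), Slc41a3 (r = 0.81) and Lrrc51 (r = 0.80), with Myh10 opposed (r = -0.84). These are the extremes of 14791 genes over 20 mice and are given as a description.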

How the data were processed

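RNA was sequenced from the striatum of 20 mice (100 bp paired-end reads, TruSeq Stranded kit). The deposited values are whole-number read counts per Ensembl gene, which the authors made with TopHat2 2.0.10, Bowtie2 2.1.0, SAMtools 0.1.19 and HTSeq 0.6.1 on GRCm38 after CASAVA 1.8.2, and the strand setting of the counting is not given in the sources used here. Rows that name no gene were left out (no feature, 8.17% to 9.55% per mouse). Depth was 32388971 to 53710713 counts on genes per mouse, at which 3 counts are 0.0559 to 0.0926 CPM.

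From these counts, the line, amphetamine and interaction differences were fitted on 14792 genes with more than 1 CPM in at least 3 mice, by the quasi-likelihood test of edgeR 4.0.16 with TMM normalization (factors 0.970 to 1.03) and 4 group means, in R 4.3.3. P-values were adjusted over all genes by Benjamini-Hochberg, with a threshold of 0.1. CPM used TMM-scaled library sizes, log2 CPM a prior count of 2, and RPKM the union exon length of GENCODE M21, which also gave the positions. Single values were compared by two-sided permutation tests (exact for 5 against 5, otherwise 100000 permutations), 42 in all and unadjusted. Of these 42 tests, 6 gave p under 0.05. Mice are separate animals but some share parents, so their values are not fully independent.

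The 7 genes and the gene lists were chosen with earlier results of these data known. Named were the 7 genes, list genes past the threshold, midbrain markers at or near 0, and for each gene above the expression threshold the 3 genes of highest and the 1 of lowest r. Other list genes given with values were chosen after their values were seen. Some genes of the lists are not reported here. Promoters are from RefSeq, for 6 of the 7 genes (none for Maob). Alternatives were DESeq2 1.42.0, the likelihood-ratio test, limma 3.58.1 with a family block, other thresholds and scaling, a cortical marker covariate, counts summed over parents, a prior count of 0.25 and leaving out each mouse. The fit was tested on simulated data of 14792 genes for the line comparison only. It recovered 92% of 100 genes changed by 1 and 77% of 100 genes changed by 0.5 on the log2 scale. The changed genes were drawn at random and the simulated mice were independent, without families, so these shares do not give the power for the 7 genes.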

Additional observations from a re-analysis of the deposited data

Results flagged for a closer look

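Of 28 groups of 5 mice tested for a single value far from the rest (Dixon's test on log2 CPM), 2 held such a value, where chance gives about 1 in 20 groups. Th was at 3.80 log2 CPM (13.9 CPM) in Control amphetamine replicate 2, against 2.85 to 3.05 in the other 4 mice, with a gap of 0.792 of the range. The saline mouse of the same parents was the highest of its group as well. Maoa was at 5.01 log2 CPM (32.2 CPM) in High-Active amphetamine replicate 5, against 5.43 to 5.52 in the other 4 mice, with a gap of 0.811 of the range. Without this mouse the line difference of Maoa was 0.23 (adjusted p = 0.0509, edgeR).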

How the results depend on the processing

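Of 198 values recomputed under other settings, 179 kept their direction and side of the threshold, as did 444 of 480 in fits that left out 1 mouse. The count of genes called for line (2149) was 411 with the cortical score as a covariate and 600 after summing the counts of full brothers, and 1381 to 2535 without 1 mouse, the lowest without High-Active amphetamine replicate 2. For amphetamine (0 called) DESeq2 called 391 genes and the likelihood-ratio test 458, and fits without 1 mouse called 0 to 339, the highest without High-Active amphetamine replicate 2. The interaction had 6 calls by the likelihood-ratio test and 0 to 1 without 1 mouse.

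Maoa passed the threshold for line by DESeq2 (0.19, with 2810 of all genes called) and by the likelihood-ratio test (0.21, with 2269 called). Without 1 mouse its line difference was 0.16 to 0.23 with adjusted p values of 0.0509 to 0.224 (edgeR). It passed in 4 of 20 such fits, without Control saline replicate 2 (adjusted p = 0.0870), Control amphetamine replicate 5 (0.0767), High-Active saline replicate 5 (0.0896) or High-Active amphetamine replicate 5 (0.0509). Slc18a2 passed for amphetamine by the likelihood-ratio test (-0.98), and without 1 mouse it was -1.08 to -0.75, with adjusted p values of 0.149 to 0.426. Over all its settings the adjusted p ran from 0.0114 to 0.967.

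Signs changed for some differences that were not called, and the cause was not tested. With the cortical score as a covariate, line was -0.027 for Slc18a2 (0.37 without it), amphetamine was 0.15 for Th and 0.11 for Ddc, and the interaction of Ddc was 0.21. The interaction of Ddc was 0.00153 without the expression threshold, and that of Maob was 0.064 by the likelihood-ratio test. The line difference of Gch1 was -0.088 with counts summed over parents and -0.070 with log2 CPM averaged over parents. Without 1 mouse, signs changed for line in Gch1 (-0.022 to 0.098), for amphetamine in Maoa (-0.030 to 0.048), and for the interaction in Ddc (-0.17 to 0.13) and Maob (-0.10 to 0.13). Averaged over parents, the line difference of Slc6a3 was 0.56 (permutation p = 0.0715). Within parents that gave both treatments, a comparison chosen after seeing the data, amphetamine was -1.05 for Slc18a2 (exact p = 0.125) and -0.018 for Maoa.

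The labels give no replicate numbers that tie groups together, so the mice were paired only by their parents, as above. The pair of parents as a random block had a correlation of 0.0264 and changed no call of the 7 genes. Depth limits Slc6a3 most, with 3 to 25 counts per mouse.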

Other observations

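The 7 genes were also set against 3 measures that the labels give for each mouse, namely home cage distance, distance after injection and body mass. Over deviations from the group means, none of the 21 relations had an adjusted p under 0.05 (permutation test). The smallest adjusted p was 0.117 for Pearson and 0.2495 for Spearman (permutation test). Pearson r ran from -0.56, for Maoa with home cage distance, to 0.33. Leaving out the 2 mice with the most extreme distance deviations gave r = -0.31 for Maoa. High-Active amphetamine replicate 5, flagged above for low Maoa, had the longest distance of all mice in both distance measures.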
